A study of Mus musculus with 20 samples.

Results

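The genes described here are 38 mouse genes whose products act in mitosis and on the spindle. They were listed by symbol with earlier results of these data known, and all 38 were found among the 55822 genes of the deposited count table. The measurements are poly(A) RNA levels in whole kidney from male mice of the inbred strain C57BL/6J, 8 weeks old, with no engineered allele named in the labels. Control mice received phosphate-buffered saline (PBS), and treated mice received puberulic acid, a tropolone made by some Penicillium moulds, at 1 mg per day. Both groups were dosed daily for 6 days and kidneys were taken on day 7, after a day without dosing. For the route, the labels say oral and elsewhere gavage or intraperitoneal injection, so which mice were dosed in which way is not known here. Each group has 5 samples, numbered replicates 1 to 5, and the labels name more mice per group than were sequenced without saying how the sequenced ones were chosen. They do not state that each sample is a separate mouse, so p-values measure the spread between these samples only. Normal and toxic lots of the supplement Choleste-Help, given at 1000 mg per day, make up the other 2 groups of the study and are not analysed here.

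Mitosis is driven by the kinase CDK1 bound to its cyclins, which triggers chromosome condensation and assembly of a bipolar microtubule spindle. Kinetochores attach each chromosome to the spindle, and the spindle checkpoint holds back the anaphase-promoting complex (APC/C), a ubiquitin ligase, until attachment is complete. The APC/C then releases separase to split the sister chromatids, and the spindle midzone directs cytokinesis. Most of these genes are transcribed mainly in the G2 phase and mitosis, so their transcripts are scarce in tissue where few cells divide. Adult kidney is such a tissue, and its tubule epithelium is known to re-enter the cell cycle after injury.

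The libraries held between 18409940 and 24705953 estimated counts. Levels are given as CPM (counts per 1000000 counts of the library) after TMM scaling, which corrects for differences in library composition. The labelled tissue was checked against its markers: 8 proximal tubule transporter and receptor genes summed to 7760 to 11310 CPM among controls and to 593 to 1401 CPM among treated samples. The TMM factors of the controls were 0.827 to 0.848 and those of the treated samples 1.17 to 1.26. Scaling to total counts in place of TMM moved the median log2 fold change of all genes tested from 0.05 to 0.56 and the share of calls that were higher from 52.4% to 78.4%. All values below are relative to the TMM scaling.

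The mitosis and spindle genes were higher with puberulic acid almost without exception. Of the 38 genes, 37 were called higher by the quasi-likelihood test of edgeR (Benjamini-Hochberg adjusted p under 0.05), against 34.2% of all 16266 genes tested. None was called lower, against 31.1% of all genes, and only Spc25 was not called. In 35 of the 38 every puberulic acid value lay above every control value, which was the case for 26.1% of all genes tested. The median log2 fold change of the 38 was 3.74, beside 0.05 over all genes. Total-count scaling gave 4.26 for the 38 genes, and no gene of the 38 changed sign under any scaling.

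Summed over the 38 genes, the level was 116, 95.9, 72.0, 66.2 and 81.2 CPM in control replicates 1 to 5. It was 322, 669, 790, 930 and 811 CPM in puberulic acid replicates 1 to 5. The means were 86.4 ± 20.2 and 704 ± 233 CPM (SD, n = 5 each), a ratio of 8.15, and the lowest treated sample lay above the highest control. In bulk tissue, a larger share of dividing cells and more of these transcripts per dividing cell cannot be told apart. Among the called genes the log2 fold change ran from 1.62 for Cenpe to 4.74 for Prc1, with adjusted p-values from 1.14e-07 to 0.024. It was at least 4 in 17 genes, between 3 and 4 in 11, between 2 and 3 in 7 and under 2 in 3, which were Incenp, Cenpe and Spc25.

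**Figure D1:**
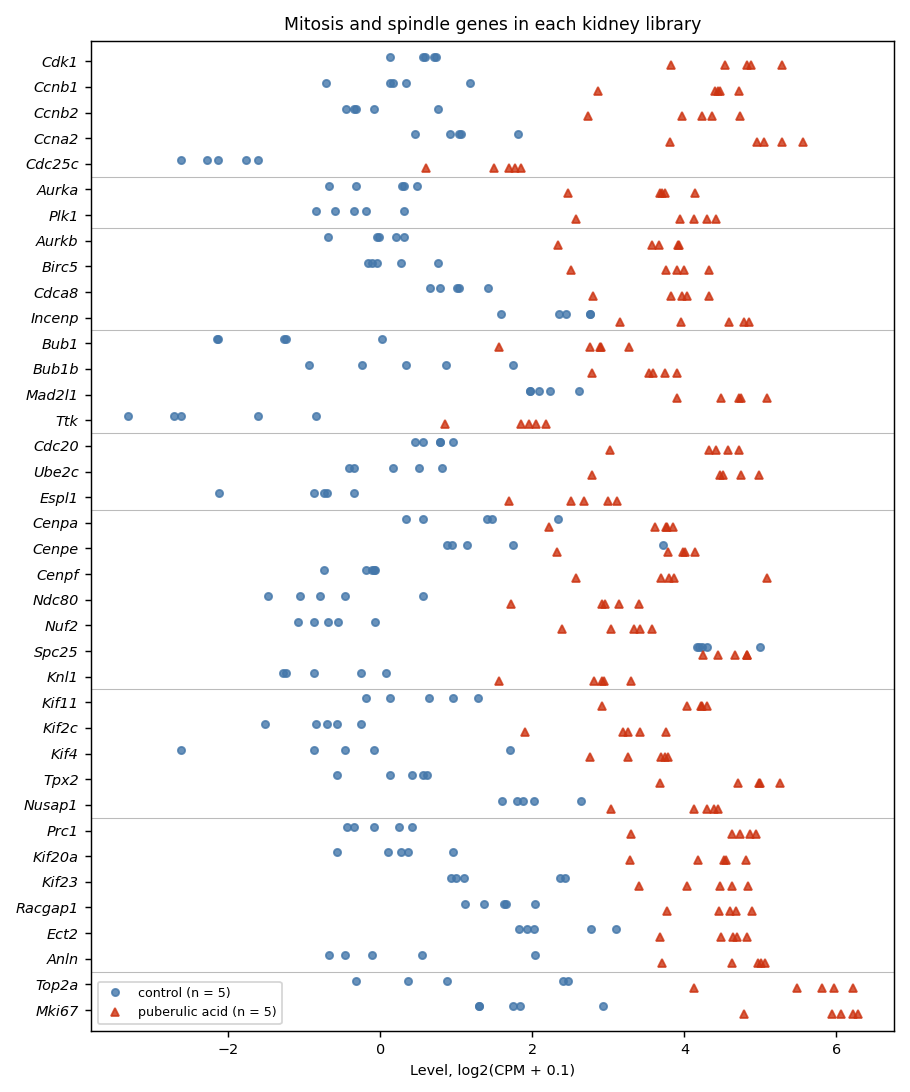
Level of each of the 38 genes in each sample, on a log2(CPM + 0.1) axis, with controls as blue circles and puberulic acid samples as red triangles (n = 5 each) and grey lines between functional groups. The symbols of the groups are apart for 35 genes and overlap for Cenpa, Cenpe and Spc25.

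The control mean was under 1 CPM in 14 genes, from 1 to 5 CPM in 21 and over 5 CPM in 3, namely Spc25, Incenp and Ect2. With puberulic acid 30 genes reached a mean of at least 10 CPM. Genes with higher control levels mostly had smaller changes: the 8 genes over 3 CPM in controls had a median log2 fold change of 2.11, with 7 of them under 3 and Mki67 the exception, and the 14 genes under 1 CPM had a median of 4.17 and a lowest value of 3.57. Control level is part of the fold change, so this is a description of the list and not a test. Of the 38 genes, 20 would pass the filter on low counts from the controls alone and 18 passed it only through the treated samples. Of those 20 genes, 19 were called higher, against 29.7% of the 13886 genes tested that pass in the same way.

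The cyclin-dependent kinase engine of mitotic entry rose together, with all 5 of its genes called and log2 fold changes from 3.96 to 4.28. Cdk1 (ENSMUSG00000019942), the kinase itself, measured 1.37, 1.53, 1.40, 0.997 and 1.56 CPM in control replicates 1 to 5 and 14.1, 23.00, 29.3, 38.7 and 28.3 CPM in puberulic acid replicates 1 to 5. The controls lay within a narrow range and every treated sample was far above them. The change in Cdk1 was 4.27 ± 0.27 (log2 fold change ± SE, adjusted p = 1.14e-07), the smallest adjusted p of the 38. Ccnb1, which encodes the B-type cyclin that activates CDK1 at mitotic entry, measured 1.03, 2.16, 0.509, 0.997 and 1.17 CPM across the controls and 7.20, 21.6, 21.1, 26.1 and 21.9 CPM across the treated samples. Its treated replicate 1 stood well below the other 4, yet more than 3 times the highest control. Ccnb2, a second B-type cyclin gene, went from 0.892 ± 0.402 to 17.6 ± 7.36 CPM (SD, n = 5), and Ccna2, the cyclin A gene of S and G2 phase, from 2.09 ± 0.801 to 32.8 ± 12.3 CPM. Cdc25c, whose product removes inhibitory phosphates from CDK1, was the scarcest of the group with a control mean of 0.144 CPM and a treated mean of 2.81 CPM. No control library held more than 4 counts of it, so its log2 fold change of 4.24 ± 0.38 rests on very few control counts.

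Both mitotic kinases that build the spindle poles and trigger later steps were called higher. Plk1 (polo-like kinase 1) measured 0.457, 0.685, 1.15, 0.561 and 0.779 CPM across the controls and 5.83, 15.2, 19.5, 21.2 and 17.4 CPM across the treated samples, a log2 fold change of 4.45 ± 0.38. Aurka (Aurora A, active at spindle poles) went from 0.958 ± 0.327 to 12.4 ± 4.34 CPM, a change of 3.69 ± 0.34. For both genes the groups did not overlap.

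The chromosomal passenger complex, which corrects faulty attachments and later moves to the midzone, had all 4 genes called, but by unequal amounts. Its kinase gene Aurkb (Aurora B) and Birc5 (survivin) changed by 3.71 ± 0.33 and 3.73 ± 0.34 on the log2 scale. Cdca8 (borealin) changed by 2.93 ± 0.28. Incenp, the scaffold that holds the complex together, measured 2.91, 5.01, 6.68, 5.36 and 6.69 CPM across the controls and 8.80, 15.4, 23.8, 28.8 and 27.4 CPM across the treated samples. Its control level was the highest of the 4, its treated replicate 1 lay above the highest control, and its change was the smallest, at 1.97 ± 0.33 (adjusted p = 0.000205).

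All 4 spindle checkpoint genes were called higher. Mad2l1, whose product MAD2 binds and inhibits the APC/C activator CDC20, measured 5.99, 4.59, 4.14, 3.80 and 3.83 CPM across the controls and 14.8, 22.2, 26.3, 33.9 and 26.7 CPM across the treated samples. It had the highest control level of the group and the smallest change, 2.47 ± 0.22. Bub1b (BUBR1) changed by 3.01 ± 0.44, from 1.46 ± 1.11 to 11.7 ± 3.03 CPM. Ttk, the MPS1 kinase gene that starts checkpoint signalling, measured 0.228, 0.0527, 0, 0.0623 and 0.455 CPM across the controls and 1.71, 3.79, 3.52, 4.44 and 4.05 CPM across the treated samples. At most 7 counts lay behind any control value of Ttk, and its change of 4.43 ± 0.56 became 5.22 ± 0.56 without control replicate 5. Bub1, a checkpoint kinase gene, changed by 4.18 ± 0.49, and by 4.86 ± 0.45 without control replicate 1, whose value of 0.913 CPM was above the 0.125 to 0.325 CPM of the other controls.

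All 3 genes that bring about anaphase were called higher. Cdc20, the APC/C activator of mitosis, measured 1.37, 1.85, 1.27, 1.62 and 1.62 CPM across the controls and 8.02, 19.98, 21.3, 26.1 and 23.7 CPM across the treated samples. Ube2c, the ubiquitin-conjugating enzyme that starts chains for the APC/C, measured 1.65, 1.32, 1.02, 0.685 and 0.649 CPM across the controls and 6.79, 21.98, 22.6, 31.5 and 26.8 CPM across the treated samples. In both genes every control was under 2 CPM and treated replicate 1 was the lowest treated sample. Log2 fold changes were 3.67 ± 0.30 for Cdc20 and 4.34 ± 0.42 for Ube2c, and 3.75 ± 0.38 for Espl1, the separase gene. Exons of Ube2c and of 9 more of the 38 genes overlap exons of a gene on the opposite strand, by 2.84% (Cdc20) to 29.3% (Kif20a) of the exon length. Top2a holds a small RNA gene on its own strand. Whether strand was used in counting is not stated, so reads from such overlaps cannot be told apart for these 11 genes. Some of the 38 genes, Ccnb1, Ccnb2 and Kif4 among them, also have annotated pseudogenes, and how reads shared with these were divided is not stated.

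The kinetochore held the exceptions. Of its 7 genes 6 were called higher, and the log2 fold change ranged from 0.20 to 4.39, the widest range of any functional group. Cenpf, a large kinetochore and nuclear matrix protein gene, measured 0.856, 0.844, 0.827, 0.499 and 0.779 CPM across the controls and 5.83, 12.8, 33.97, 13.8 and 14.5 CPM across the treated samples. Treated replicate 3 was more than 2 times the next sample, and replicate 3 was the highest treated sample in only 3 of the 38 genes. Knl1, the scaffold that recruits checkpoint proteins, changed by 3.60 ± 0.39, with non-overlapping groups. Cenpa, the histone variant that marks the centromere, measured 4.96, 1.16, 2.55, 1.37 and 2.66 CPM across the controls and 4.57, 12.2, 13.6, 14.3 and 13.4 CPM across the treated samples. Control replicate 1 was above treated replicate 1, so the groups overlapped by those samples, and the change was 2.19 ± 0.41 (adjusted p = 0.000514).

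Cenpe (ENSMUSG00000045328), the kinesin that carries chromosomes to the spindle equator, had the least certain call. It measured 13.1, 2.11, 3.25, 1.74 and 1.82 CPM across the controls and 4.90, 15.9, 13.6, 15.7 and 17.5 CPM across the treated samples. Control replicate 1 was above treated replicate 1 and below the other 4 treated samples, and the other 4 controls lay below all 5 of them. Its change was 1.62 ± 0.56 (adjusted p = 0.024). Without control replicate 1 it was 2.59 ± 0.37 (adjusted p = 0.000101). The call was lost, with adjusted p from 0.0514 to 0.058 and changes from 1.40 to 1.51, when any of control replicates 2, 3, 4 or 5 or of puberulic acid replicates 4 or 5 was left out.

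Spc25 (ENSMUSG00000005233) encodes a subunit of the NDC80 complex, the rod of 4 subunits that grips microtubules, and was the only gene of the 38 not called. It measured 18.7, 31.8, 17.8, 19.6 and 18.2 CPM across the controls and 18.8, 21.6, 28.3, 25.3 and 28.1 CPM across the treated samples. The groups overlapped, control replicate 2 was the highest of all 10 samples, and the change of 0.20 ± 0.18 was not called (adjusted p = 0.34). Adjusted p ran from 0.00395 to 0.61 over the alternatives and passed the threshold in 2 of them: without control replicate 2, where the change was 0.38 ± 0.13 (adjusted p = 0.0263), and with total counts, where it was 0.71 (adjusted p = 0.00395). Ndc80 changed by 3.57 ± 0.44 and Nuf2 by 4.02 ± 0.30. Spc24, the partner of Spc25 in the complex and a gene outside the 38, changed by 1.88 ± 0.24 (adjusted p = 2.39e-05), from 3.36 ± 0.0848 to 12.4 ± 4.00 CPM.

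Levels between these subunit genes can be compared per kb of exon. In controls Spc25 stood at 6.66 CPM per kb, Spc24 at 1.31, Ndc80 at 0.0958 and Nuf2 at 0.0875. With puberulic acid the values were 7.66 for Spc25, 4.82 for Spc24, 1.44 for Nuf2 and 1.16 CPM per kb for Ndc80. Spc25 had the highest control level per kb of the 38 genes, ahead of Incenp at 1.23 CPM per kb. With puberulic acid the highest per kb were Ccnb2 at 11.5, Cdc20 at 10.6, Ube2c at 8.43 and Ccna2 at 8.03 CPM per kb, followed by Spc25. Lengths are unions of exons in GENCODE M21, an annotation of an earlier build than the one the counts were made on.

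**Figure D2:**
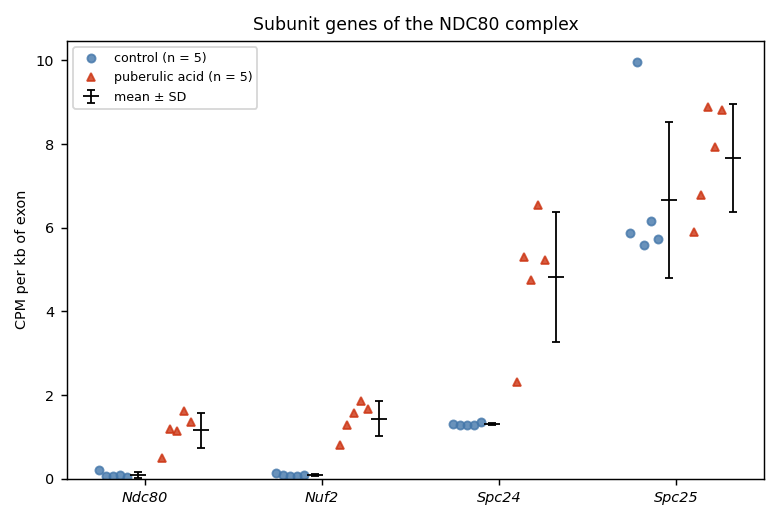
CPM per kb of exon for the 4 subunit genes of the NDC80 complex, with 1 symbol per sample (controls blue, puberulic acid red, n = 5 each) and black marks for the mean ± SD. Ndc80, Nuf2 and Spc24 are low in every control and higher in every treated sample, while the groups overlap for Spc25.

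All 5 spindle genes were called higher. Tpx2, which activates Aurora A and nucleates spindle microtubules, measured 1.43, 1.37, 0.573, 0.997 and 1.23 CPM across the controls and 12.7, 25.98, 31.5, 38.3 and 31.7 CPM across the treated samples, a change of 4.63 ± 0.33. Kif2c, a kinesin that takes microtubules apart at their ends, changed by 4.16 ± 0.38. Kif11, the kinesin that pushes spindle poles apart, changed by 3.42 ± 0.34, from 1.49 ± 0.632 to 16.1 ± 4.99 CPM. Kif4, a kinesin on chromosome arms, measured 0.628, 3.16, 0.445, 0.0623 and 0.844 CPM across the controls and 6.68, 9.50, 13.6, 13.3 and 12.8 CPM across the treated samples. Control replicate 2 was far above the other controls, and the change of 3.40 ± 0.59 became 4.47 ± 0.45 without it. Nusap1, a microtubule-bundling protein gene, had the highest control mean of the group at 3.98 CPM and the smallest change, 2.13 ± 0.28.

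The 6 genes of the midzone and of cytokinesis were all called higher, with no overlap between groups. Prc1 (ENSMUSG00000038943), whose product bundles the antiparallel microtubules of the midzone, measured 1.08, 0.844, 0.636, 0.685 and 1.23 CPM across the controls and 9.72, 24.6, 28.97, 30.8 and 26.6 CPM across the treated samples. Its change of 4.74 ± 0.34 was the largest of the 38 (adjusted p = 2.72e-07). Kif20a, the kinesin that brings the passenger complex to the midzone, changed by 4.14 ± 0.34. The centralspindlin genes Kif23 and Racgap1 changed by 2.66 ± 0.38 and 2.97 ± 0.23. Ect2, which activates RHOA at the division plane, changed least, by 2.10 ± 0.29, from 5.26 ± 2.24 to 22.7 ± 5.98 CPM. Anln (anillin, a scaffold of the contractile ring) measured 3.99, 0.527, 0.827, 0.623 and 1.36 CPM across the controls and 12.95, 24.5, 32.2, 33.3 and 31.2 CPM across the treated samples. Its control replicate 1 was the highest control, and the change of 4.18 ± 0.50 became 5.01 ± 0.37 without it.

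Top2a and Mki67 had the highest treated levels of the 38 in CPM. Top2a, the topoisomerase that untangles sister DNA, measured 5.42, 1.74, 0.700, 1.18 and 5.19 CPM across the controls and 17.4, 44.5, 56.1, 74.2 and 62.2 CPM across the treated samples. Mki67, the gene of the proliferation marker Ki-67 that coats mitotic chromosomes, measured 7.53, 3.48, 2.35, 2.37 and 3.25 CPM across the controls and 27.4, 61.3, 66.7, 77.7 and 74.3 CPM across the treated samples. For both, control values were uneven and the lowest treated sample was still more than 3 times the highest control. Log2 fold changes were 4.16 ± 0.54 and 4.01 ± 0.37.

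**Figure D3:**
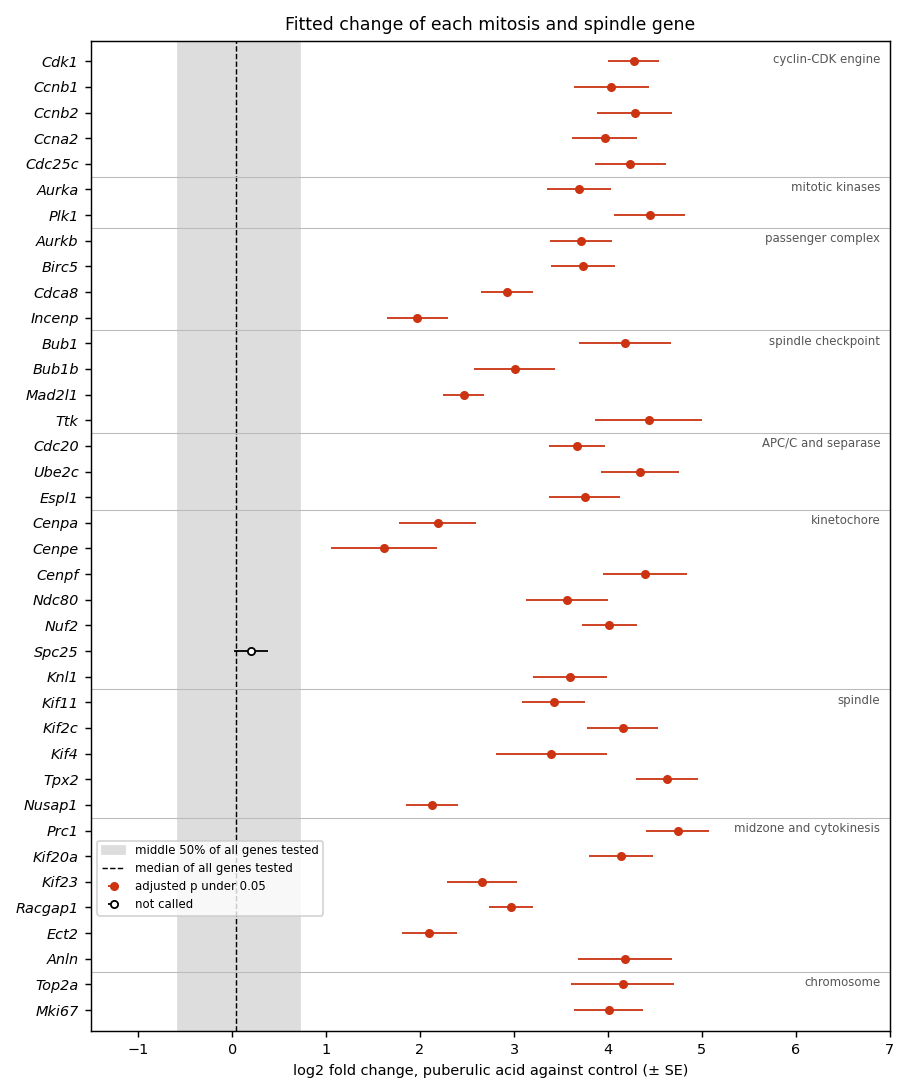
Log2 fold change of each gene, puberulic acid against control, as points with bars of ± SE, ordered by functional group, with the median (dashed line) and the middle 50% (grey band) of all genes tested. Filled red points passed an adjusted p of 0.05, and 37 of the 38 did. Spc25, the open point, lies at 0.20.

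The treated samples did not carry the increase equally. Puberulic acid replicate 1 had the lowest treated value in 38 of 38 genes, and replicate 4 the highest in 32. Replicate 1 stood at a median of 38.9% of the mean of the other 4 treated samples, from 26.4% for Ube2c to 72.9% for Spc25. The same median was 58.8% over 26 genes of DNA replication and 83.3% over all genes called higher. Within replicates 2 to 5, the highest value was a median of 1.41 times the lowest, and over all 5 it was 3.03 times. Leaving replicate 1 out, 37 of the 38 genes were called higher and the median log2 fold change was 3.91.

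Among controls, replicate 1 had the highest value in 22 of the 38 genes, replicate 2 in 9, replicate 5 in 5 and replicate 3 in 2. The highest control value was a median of 2.62 times the lowest nonzero one, and few counts lie behind many control values. Control replicate 1 also had the lowest summed proximal tubule markers of the controls, at 7760 CPM beside 9933 to 11310 CPM in the others, and the part of this in its values was not tested.

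**Figure D4:**
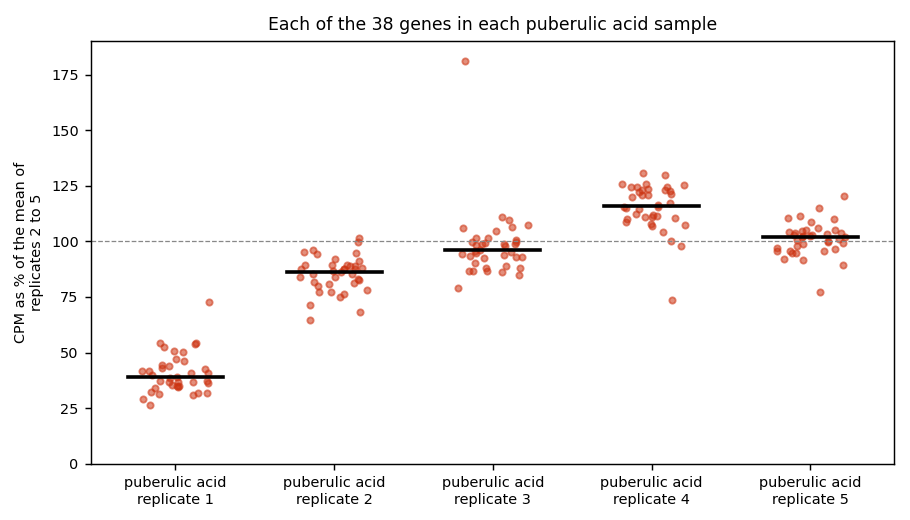
Each of the 38 genes in each puberulic acid sample, as a percentage of that gene's mean over replicates 2 to 5 (points), with the median over genes as a black bar. The medians are 38.9%, 86.4%, 95.9%, 116% and 102% for replicates 1 to 5, and the highest point in replicate 3 is Cenpf.

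Markers of some kidney and immune cell types differed between the same samples. The summed proximal tubule markers, all 8 called lower, were highest among treated samples in replicate 1, at 1401 CPM, and at 593 to 724 CPM in replicates 2 to 5. Of 8 macrophage and myeloid markers, 6 were called higher, and their sum was 80.3 to 120 CPM in 4 controls, 179 CPM in control replicate 4, 175 CPM in treated replicate 1 and 357 to 584 CPM in treated replicates 2 to 5. Treated replicate 1 was thus below control replicate 4 and above the other controls. Of 6 fibroblast and pericyte markers, 5 were called higher, with sums of 84.5 to 148 CPM in controls, 449 CPM in treated replicate 1 and 649 to 1712 CPM in the others. Among treated samples, replicate 1 was nearest to the controls in all 3 of these marker sums as well as in the mitosis genes, whose sum in that sample was 322 CPM against at most 116 CPM in controls. The part of these cell types in the increase was not tested.

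The other marker lists were smaller or moved the other way. Neutrophil markers summed to 0.896 to 2.24 CPM among controls and to 3.42 to 6.31 CPM among treated samples, with 2 of 3 tested called higher, Ly6g listed at 0 in every sample and Retnlg at 0 in every control. Markers of T, B and NK cells summed to 4.03 to 6.91 and 4.47 to 11.8 CPM, and 2 of the 5 tested were called higher, near the 34.2% of all genes. Endothelial markers overlapped between groups, at 197 to 310 and 106 to 268 CPM, and 1 of 6, Kdr, was called lower, though not with total counts, and Emcn was also called lower without control replicate 1 or 2 or puberulic acid replicate 4 or 5. Erythroid markers summed to 380 to 1284 CPM among controls and to 17.3 to 131 CPM among treated samples, and 4 of 5 tested were called lower. Most of that sum was Hbb-bs, a beta-globin gene, at 722 ± 358 and 64.0 ± 40.0 CPM, while Tal1, a transcription factor gene of blood cell formation, had a log2 fold change of -0.01 ± 0.30 and was not called. With upper-quartile or total-count scaling 3 of the 5 were called lower, since Epor, the erythropoietin receptor gene, then missed the threshold (adjusted p = 0.0575 and 0.428), as it also did in 7 of the 10 fits that left out 1 sample. Among treated samples, replicate 1 was also nearest to the controls in the neutrophil and erythroid sums, at 3.42 and 131 CPM. This was not so for T, B and NK markers, lowest in replicate 2 at 4.47 CPM, with replicate 1 at 6.12 CPM. Nor was it so for endothelial markers, where replicates 1, 4 and 5 (240, 205 and 268 CPM) all lay within the control range. The part of the cell types of these lists in the increase was not tested.

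The promoters of these genes were searched for the paired elements known from genes of G2 and mitosis, the class from which the list was drawn. The cell cycle genes homology region (CHR) is bound by the MuvB complex, which represses such genes in resting cells and activates them with B-MYB and FOXM1 in dividing cells, and NF-Y binds CCAAT boxes upstream. RefSeq windows of 250 bases before to 50 bases after the start (GRCm38.p6) were matched by symbol for 32 of the 38 genes. No window was matched for Aurkb, Ccna2, Cdc25c, Incenp, Kif20a and Tpx2. In 23 of the 32 genes the end of the window lay in a GENCODE M21 transcript of the gene. For the rest the start in use may differ, which limits what a missing match means. The CHR was searched as TTTGAA or TTCGAA and the NF-Y box as CCAAT, each on both strands. In 1 gene, Cdca8, a CHR match overlaps a CCAAT match.

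A CHR match lay in 26 of the 32 windows (81.3%), against 19.4% of the first windows of all 27025 genes. Within 50 bases of the start it was found in 24 of 32 (75%), against 5.29% of all genes. A CCAAT match was found in 24 of 32 (75%), against 37.9%, and 2 or more of them in 16 of 32, against 12.2%. Both a CHR match near the start and at least 2 CCAAT matches were present in 14 of 32 (43.8%), against 0.766% of all genes. Neighbouring CCAAT matches lay 31 to 34 bases apart in 8 cases, in 7 genes. These matches describe the letters in the windows and are not measured binding sites. The search used no expression value, and the elements are known from genes of this class. The excess over all genes thus describes the choice of the list and not the change with puberulic acid. The windows of all genes were not restricted to genes tested here.

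The stretches shown run from 100 bases before the annotated start through 30 bases from the start on, 5′ to 3′ on the gene's strand, with every CHR and CCAAT match in capitals (ATTGG and TTCAAA are the same motifs read on the other strand). Prc1 (chr7:80294351-80294480, plus strand) had the largest change, and Ube2c (chr2:164769829-164769958, plus), Ccnb2 (chr9:70421525-70421654, minus), Cdk1 (chr10:69352883-69353012, minus), Bub1 (chr2:127831830-127831959, minus) and Cdc20 (chr4:118437314-118437443, minus) stand for the engine, the checkpoint and anaphase. Spc25 (chr2:69206184-69206313, minus) and Nuf2 (chr1:169531435-169531564, minus) are shown as subunits of 1 complex, the first not called and the second called higher.
Prc1: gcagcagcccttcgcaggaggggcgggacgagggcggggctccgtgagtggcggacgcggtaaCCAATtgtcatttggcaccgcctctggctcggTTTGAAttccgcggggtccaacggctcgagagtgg
Ube2c: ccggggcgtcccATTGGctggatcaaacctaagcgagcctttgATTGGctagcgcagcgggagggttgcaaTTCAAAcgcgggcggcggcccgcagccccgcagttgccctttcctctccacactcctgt
Ccnb2: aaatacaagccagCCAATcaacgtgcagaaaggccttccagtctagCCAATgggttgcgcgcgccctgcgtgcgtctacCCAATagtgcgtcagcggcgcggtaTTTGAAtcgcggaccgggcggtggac
Cdk1: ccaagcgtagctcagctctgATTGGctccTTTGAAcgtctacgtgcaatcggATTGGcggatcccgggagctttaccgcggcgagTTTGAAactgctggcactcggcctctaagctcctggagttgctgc
Bub1: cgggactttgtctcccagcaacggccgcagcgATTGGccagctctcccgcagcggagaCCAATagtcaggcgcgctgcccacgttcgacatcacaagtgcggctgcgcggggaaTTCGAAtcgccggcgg
Cdc20: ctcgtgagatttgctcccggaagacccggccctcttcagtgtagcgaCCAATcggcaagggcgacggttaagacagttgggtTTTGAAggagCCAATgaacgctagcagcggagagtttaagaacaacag
Spc25: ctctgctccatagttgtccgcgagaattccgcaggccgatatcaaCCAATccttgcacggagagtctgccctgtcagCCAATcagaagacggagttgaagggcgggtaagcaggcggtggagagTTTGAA
Nuf2: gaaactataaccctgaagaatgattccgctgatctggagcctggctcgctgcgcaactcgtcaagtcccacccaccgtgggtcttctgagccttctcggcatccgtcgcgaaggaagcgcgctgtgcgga

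In Ccnb2 the 3 CCAAT matches are spaced 33 bases apart and followed by a CHR match. Cdk1 has 2 CHR matches, each downstream of a CCAAT match. Spc25, the gene that was not called, has a CHR match and 2 CCAAT matches 32 bases apart. Nuf2, with a log2 fold change of 4.02, has no match of either motif in its window, as have Birc5, Mad2l1 and Nusap1.

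**Figure D5:**
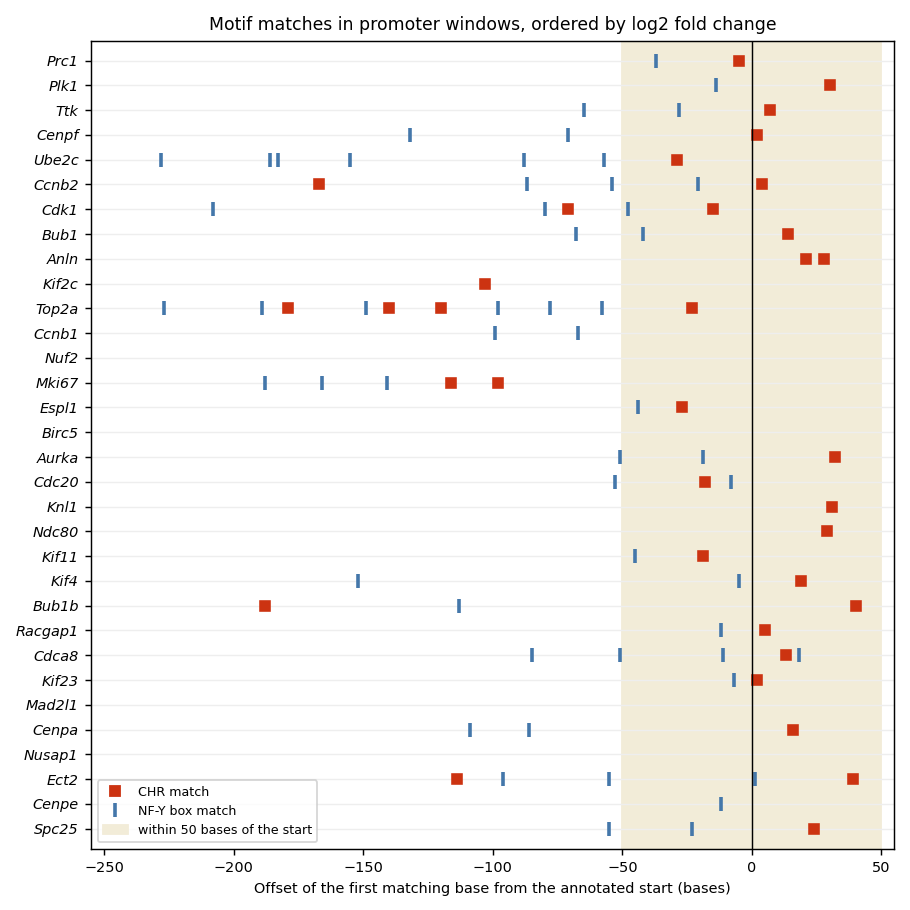
Motif matches in the promoter windows of 32 genes, ordered from the largest (top) to the smallest (bottom) log2 fold change, with the offset of each match from the annotated start in bases. Red squares are CHR matches and blue bars NF-Y box matches, and 24 of the 32 genes have a CHR match inside the shaded 50 bases on either side of the start.

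Other genes of the pathway were read from 11 lists with 148 genes tested. Of these, 102 were called higher (68.9%) and 14 lower, with a median log2 fold change of 1.15, where 34.2% of all genes tested were called higher and 31.1% lower. Scaling to total counts gave 131 higher and 5 lower, beside 56.4% and 15.5% of all genes, so the smaller lower calls below depend on the scaling. Besides the 2 genes per list with the largest change, genes are named here because they were called lower, not called or alone in their list, and Spc24 because its complex is described, a choice made after their values were seen.

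Kinetochore and motor genes outside the 38 were mostly higher. Of 28 other kinetochore genes 24 were called higher and none lower, with a median log2 fold change of 1.76. Cenpi, of the inner kinetochore, went from 0.192 ± 0.193 to 4.79 ± 1.73 CPM, and Ska3, of the complex that helps hold microtubules, from 0.316 ± 0.345 to 5.09 ± 1.51 CPM. The change of Cenpi was 4.60 ± 0.56, and 5.40 ± 0.56 without control replicate 1, and that of Ska3 was 4.03 ± 0.58, and 4.89 ± 0.55 without control replicate 3. Of 7 other mitotic kinesins 6 were called higher, with Kif18b at 4.17 ± 0.42. Kif14 went from 0.0636 to 3.52 CPM, with control values at or near 0. Kif20b, a kinesin of late cytokinesis, was the exception, at 49.1, 40.1, 66.4, 35.3 and 40.2 CPM across the controls and 6.05, 12.6, 12.9, 20.1 and 14.1 CPM across the treated samples. Every treated sample of Kif20b lay below every control, a change of -1.82 ± 0.27 that was also called lower with total counts.

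Condensin folds mitotic chromosomes, and cohesin holds sister chromatids together. Of 8 condensin genes 6 were called higher, with Ncapg at 4.49 ± 0.55, or 5.11 ± 0.55 without control replicate 1, and Ncaph at 3.70 ± 0.31. Ncapd3 was not called, and Ncaph2 was called lower at -0.25 but higher at 0.25 with total counts, and it was not called without control replicate 4 or 5 or without puberulic acid replicate 1, 3 or 5. Of 14 cohesin and securin genes 9 were called higher, with a median log2 fold change of only 0.36. The count of 9 became 7 to 10 when 1 sample was left out. Sgo2a, which protects centromeric cohesin, changed by 3.84 ± 0.37, and Cdca5 (sororin) by 3.72 ± 0.42. Pttg1, the securin that inhibits separase, went from 45.3 ± 2.01 to 28.97 ± 1.67 CPM, the opposite direction to Espl1, with a change of -0.64 ± 0.07 that became -0.14 and was not called with total counts.

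Of 14 core subunit genes of the APC/C 1, Anapc15, was called higher, and Anapc5, Anapc13, Cdc16 and Cdc26 were called lower. These 4 of 14 are near the 31.1% called lower over all genes, so the lower count does not set the core subunits apart. Anapc15 lost its call in 8 of the 10 fits that left out 1 sample. Scaling to total counts gave 9 higher, also near the share of all genes (56.4%), and 1, Anapc13, lower. The median log2 fold change was -0.09, and 0.42 with total counts. Anapc13 changed by -1.33 ± 0.09 and Cdc26 by -0.55 ± 0.08, the latter not called with total counts. Of 7 APC/C regulators 5 were called higher, among them Trip13 at 3.38 ± 0.37 and Fbxo5, the EMI1 inhibitor gene, at 1.62 ± 0.28. The count of 5 fell to 3 without control replicate 1, 2 or 3 or without puberulic acid replicate 2, 3, 4 or 5.

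Regulators of mitotic entry, centrosomes and cytokinesis were mixed. Of 9 entry switch genes 5 were called higher, with Ccnf at 3.99 ± 0.47, or 4.68 ± 0.38 without control replicate 3, and Mastl, the Greatwall kinase gene, at 2.51 ± 0.20. Arpp19 and Ensa, whose products Greatwall phosphorylates, were called lower at -0.44 and -0.35, and were above 0 and not called with total counts. Wee1, the kinase that restrains CDK1, and Cdc25a were not called, but with total counts both were called higher, at 0.45 and 0.74. Without control replicate 5, Cdc25a was called higher at 0.33. Of 14 centrosome genes 9 were called higher, with Stil at 4.06 ± 0.39 and Plk4, the kinase that starts centriole copying, at 1.94 ± 0.36. Pcnt was called lower at -0.66 but not with total counts. Without control replicate 1, 3 or 4 or puberulic acid replicate 2, 3, 4 or 5, the count of 9 fell to 7. It was 8 without puberulic acid replicate 1. Of 7 other cytokinesis genes 5 were called higher, with Cep55 at 4.33 ± 0.42 and Ckap2l at 4.31 ± 0.43.

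The transcription factors that act on the CHR and their relatives were mixed. Of 14 such genes tested 8 were called higher, with E2f8 at 3.75 ± 0.55 and Foxm1, an activator of G2 and mitotic genes, at 3.66 ± 0.24. The count of 8 became 7 to 10 when 1 sample was left out. Foxm1 went from 1.74 ± 0.522 to 22.1 ± 4.65 CPM. Lin52, a MuvB subunit gene, and Rbl2, which encodes the p130 repressor, were called lower at -1.07 and -0.95, also with total counts. Rbbp4 was called lower at -0.29 but higher at 0.22 with total counts. Of 26 genes of DNA replication and S phase 24 were called higher, with a median log2 fold change of 1.78, Rrm2 at 3.69 ± 0.28 and Cdc6 at 3.56 ± 0.40. Mcm10, a replication initiation gene, was not called.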

How the data were processed

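Poly(A) RNA of whole mouse kidney was sequenced with a directional library kit, per the labels' protocols. The authors deposited an estimated count for each gene in each sample, with fractional values and no stated normalization. Per the submitters' processing notes, fastp 0.22.0, FastQC 0.12.1, MultiQC 1.28, Salmon 1.10.3 and DESeq2 were used with build GRCm39, with no role or annotation given, and strand use in counting is not given in the sources used here. Columns were assigned by name. The names of 10 sample columns carry no sign of the Choleste-Help lot. Those 10 columns entered no step, and the lots are not analysed here.

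The 5 control and 5 puberulic acid columns were rounded to integers, filtered with filterByExpr (a minimum count of 10) and scaled with TMM factors. All 16266 genes kept were tested together with edgeR 4.0.16 (glmQLFit and glmQLFTest) in R 4.3.3 with limma 3.58.1, Benjamini-Hochberg adjustment and a threshold of 0.05. Standard errors were derived as absolute log2 fold change over the root of the F statistic. The procedure was run on simulated data in which few genes changed, with up and down drawn alike. Those data held no shift in library composition like the one seen here, so they do not test the scaling. A floor of 3 counts equals 0.158 to 0.195 CPM in controls and 0.0964 to 0.128 CPM with puberulic acid, and covers counting error only. Exon lengths and overlaps came from GENCODE M21, and promoter windows from RefSeq (GRCm38.p6), matched by symbol.

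Members and gene lists were chosen with earlier results of these data known. All 38 genes are named. Of each other pathway list, the rule names up to 2: the called genes that average at least 1 CPM and change most, up or down. Further list genes were named after their values were seen. Of 149 pathway genes listed, 148 were found by symbol. The result of 1 gene that the text would have named is not reported here.

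Alternatives were median-of-ratios (RLE), upper-quartile and total-count scaling, testing without the filter or with 1 CPM in 5 or more samples, a robust fit, the Wald test of DESeq2 1.42.0, exclusion of mitochondrially encoded and the 10 most abundant genes, a fold threshold, a replicate block, and leaving out each sample.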

Additional observations from a re-analysis of the deposited data

Results flagged for a closer look

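In each gene and group of 5 samples, the gap between the highest or lowest sample and its nearest neighbour was divided by the group's range. A share above 0.71 marks a sample far from the others. Of 76 groups of values searched, 11 had such a sample, where chance gives about 5%, or 3.8 groups, for normally distributed values. Many control values rest on few counts, and all genes share the same samples, so the 3.8 is only a rough guide.

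Puberulic acid replicate 1 was far below the other treated samples in 3 genes. The gap share was 0.734 for Ccnb1 (7.20 CPM, others 21.1 to 26.1), 0.779 for Cenpa (4.57 CPM, others 12.2 to 14.3) and 0.732 for Kif11 (7.42 CPM, others 16.3 to 19.5).

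Control replicate 1 was far above the other controls in 5 genes. The gap share was 0.781 for Ccnb2 (1.60 CPM, others 0.633 to 0.844), 0.746 for Bub1 (0.913 CPM, others 0.125 to 0.325) and 0.867 for Cenpe (13.1 CPM, others 1.74 to 3.25). It was 0.759 for Anln (3.99 CPM, others 0.527 to 1.36) and 0.783 for Mki67 (7.53 CPM, others 2.35 to 3.48).

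Control replicate 2 was far above the others in Spc25, with a gap share of 0.871 (31.8 CPM, others 17.8 to 19.6), and in Kif4, with 0.748 (3.16 CPM, others 0.0623 to 0.844). Control replicate 4 was far below the others in Cenpf, with 0.785 (0.499 CPM, others 0.779 to 0.856).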

How the results depend on the processing

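Over 19 alternative fits, 714 of 722 values of the 38 genes kept their direction and their side of the threshold, and none reversed. The exceptions were the 6 lost calls of Cenpe and the 2 gained calls of Spc25 given with those genes. Genes called higher numbered 36 to 37 of the 38 when 1 sample was left out and 37 to 38 otherwise, and none was called lower. Their median log2 fold change was 3.60 to 3.95 with 1 sample left out, and moved to 4.26 (4.255) with total counts, where the median of all genes moved too. Over all genes, 10104 to 11108 were called with 1 sample left out and 9960 to 12095 otherwise, and 5264 with a log2 fold change of at least 1 also required, which by construction keeps fewer genes. A fit with a replicate block called 10325 genes, of which 10111 were also called without it, and 37 of the 38 were higher. Same-numbered samples deviated with correlations from -0.17 to 0.039. No shared deviation by number was seen, which does not exclude that the numbers pair the samples. Depth limits the genes under 1 CPM in controls, where few counts lie behind each control value.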
